A study of Homo sapiens with 6 samples.

Results

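The genes described here encode the nuclear subunits of respiratory complexes II to V, together with cytochrome c. They were chosen by symbol, with earlier results of these data known, from the 23026 genes of the deposited normalized table. The symbols were SDHA to SDHD for complex II, UQCR genes and CYC1 for complex III and CYCS for cytochrome c. COX4 to COX8 genes were taken for complex IV and ATP5 genes for complex V. Of 65 symbols that matched, 20 were pseudogene symbols and were left out, which left 45 genes. Complex II had 4 of them, complex III 10, complex IV 11 and complex V 19, and CYCS stood alone. The symbols are those of the table, several of them older names (ATP5F1 is now ATP5PB, ATP5A1 is ATP5F1A, ATP5B is ATP5F1B, and ATP5G1, ATP5G2 and ATP5G3 are ATP5MC1, ATP5MC2 and ATP5MC3). Among the ATP5 symbols, ATP5S and ATP5SL are historical names of genes that encode no subunit, ATP5J2-PTCD1 is a read-through gene and ATP5L2 is a copy of ATP5L.

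The respiratory chain sits in the inner membrane of mitochondria. Complex II, succinate dehydrogenase, passes electrons from the citric acid cycle to ubiquinone, complex III moves them on to cytochrome c, and complex IV, cytochrome c oxidase, hands them to oxygen. Complexes III and IV pump protons, and complex V, ATP synthase, uses the resulting gradient to make ATP. Complex II is encoded by nuclear genes only, whereas complexes III, IV and V each combine nuclear subunits with others made from the mitochondrial genome.

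Messenger RNA was sequenced in 6 libraries of T98G, an established human glioblastoma line. In 3 libraries (shControl 1A, 1B and 1C) the cells carried a lentivirus with a control short hairpin RNA, and in the other 3 (shDYRK1A 1A, 1B and 1C) the hairpin was directed against the kinase DYRK1A. All cells had been selected with puromycin, and a constant number of Drosophila Kc167 cells was added to equal numbers of T98G cells as an external scale. The labels do not say whether the libraries came from separate cultures, so p-values measure the spread between these libraries, which may be technical. In bulk RNA, fewer cells and less RNA per cell cannot be told apart beyond the counting of cells before mixing.

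Values given for 3 libraries are in the order 1A, 1B, 1C. Human gene counts summed to 33708297 to 42154438 per library, and shDYRK1A 1B had both the fewest counts and the largest unmapped share (15.6%). The DYRK1A transcript, the target of the hairpin, had 1829, 1969 and 1946 counts in shControl and 1568, 1140 and 1560 in shDYRK1A, and its spike-in-normalized level fell in shDYRK1A (log2 fold change -0.73 ± 0.15 SE, adjusted p 5.33e-06 in edgeR's quasi-likelihood test). The median of all genes tested was itself -0.40 on that scale. With TMM scaling, explained below, the log2 fold change of DYRK1A was -0.34 (adjusted p 0.000591 in edgeR). In CPM, the count scaled to a fixed total of human gene counts, its mean was 46.7 in shControl and 37.6 in shDYRK1A. The smallest decline in CPM was in shDYRK1A 1A. Of 8 glial and glioblastoma markers, 5 were above 1 CPM in every library, S100B was at 0 in all, and the defining markers GFAP and SOX2 were near 0. Their summed level, nearly all of it VIM and CD44, was 3342 to 3491 CPM in shControl and 3129 to 3214 CPM in shDYRK1A, and its members differed in direction. Mean levels in shControl and shDYRK1A were 1935 and 1589 CPM for VIM and 1462 and 1572 CPM for CD44. They were 4.36 and 13.5 CPM for CHI3L1, 1.96 and 1.61 CPM for NES and 1.72 and 1.23 CPM for OLIG2. In CPM the groups did not overlap in any of these, although CD44 nearly did (1539.4 in shControl 1A, 1540.3 in shDYRK1A 1B). CD44 was lower with the spike-in (-0.32, adjusted p 0.0181 in edgeR) and not called with TMM (0.08, adjusted p 0.165). Of 3 immune and 3 endothelial markers 0 reached 1 CPM in every library, and 3 neuronal markers together held 3.11 to 4.53 CPM in shControl and 5.37 to 5.96 CPM in shDYRK1A. The part of these markers in the results below was not tested. The tissue-specific isoforms COX4I2, COX6A2 and COX7A1 were at 0 counts in every library, and COX6B2, COX7B2 and COX8C had at most 4 counts in any library.

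With spike-in scaling, 33 of the 43 members tested (ATP5S and ATP5SL included) had log2 fold changes (shDYRK1A relative to shControl) above the median of all genes. The complexes were not alike. The medians of complexes II and III lay near that of all genes, and those of complexes IV and V were closer to 0. Of the 45 genes, 43 passed the expression filter (mean level above 10 CPM), which took 9697 genes in all. At an adjusted p below 0.05, 17 of the 43 (39.5%) were lower in shDYRK1A, against 63.4% of all genes tested, and 1 was higher, COX7C, against 1.08%. Past a log2 fold change of -0.7, 3 were lower (UQCR10, SDHB and ATP5F1), against 14.3% of all genes, and 0 were higher, against 0.278%. By sign alone, 39 of the 43 were negative, as were 9077 of all 9697 genes. Their median was -0.26, and that of all genes was -0.40.

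The spike-in scale places all genes of a library on 1 size factor, so the same counts were also scaled with TMM (trimmed mean of M-values), which sets the bulk of human genes near 0. The median of all genes then moved from -0.40 to 0.00. With TMM scaling, 21 members were higher in shDYRK1A, against 27.3% of all genes, and 5 were lower (UQCR10, SDHB, ATP5F1, CYCS and COX7A2L), against 28.6%. Those 5 were lower with both scalings. A further 20 were higher with TMM and not called with the spike-in, 12 were lower with the spike-in only and 5 were called with neither. The members' median lay 0.14 above that of all genes on both scales. With spike-in scaling the 17 lower calls became 7 without shControl 1A, 10 without shControl 1B, 27 without shControl 1C and 7 without shDYRK1A 1C, and 12 and 19 without shDYRK1A 1B and 1A. The 3 past the fold threshold became 1 without shControl 1A, shControl 1B, shDYRK1A 1B or shDYRK1A 1C. In these fits the median of all genes also moved, from -0.48 without shControl 1C to -0.34 without shDYRK1A 1B. The share of all genes called in each fit is not given, here or for single complexes below. With TMM scaling, the same omissions gave 18 to 27 higher and 4 to 6 lower members.

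**Figure D1:**
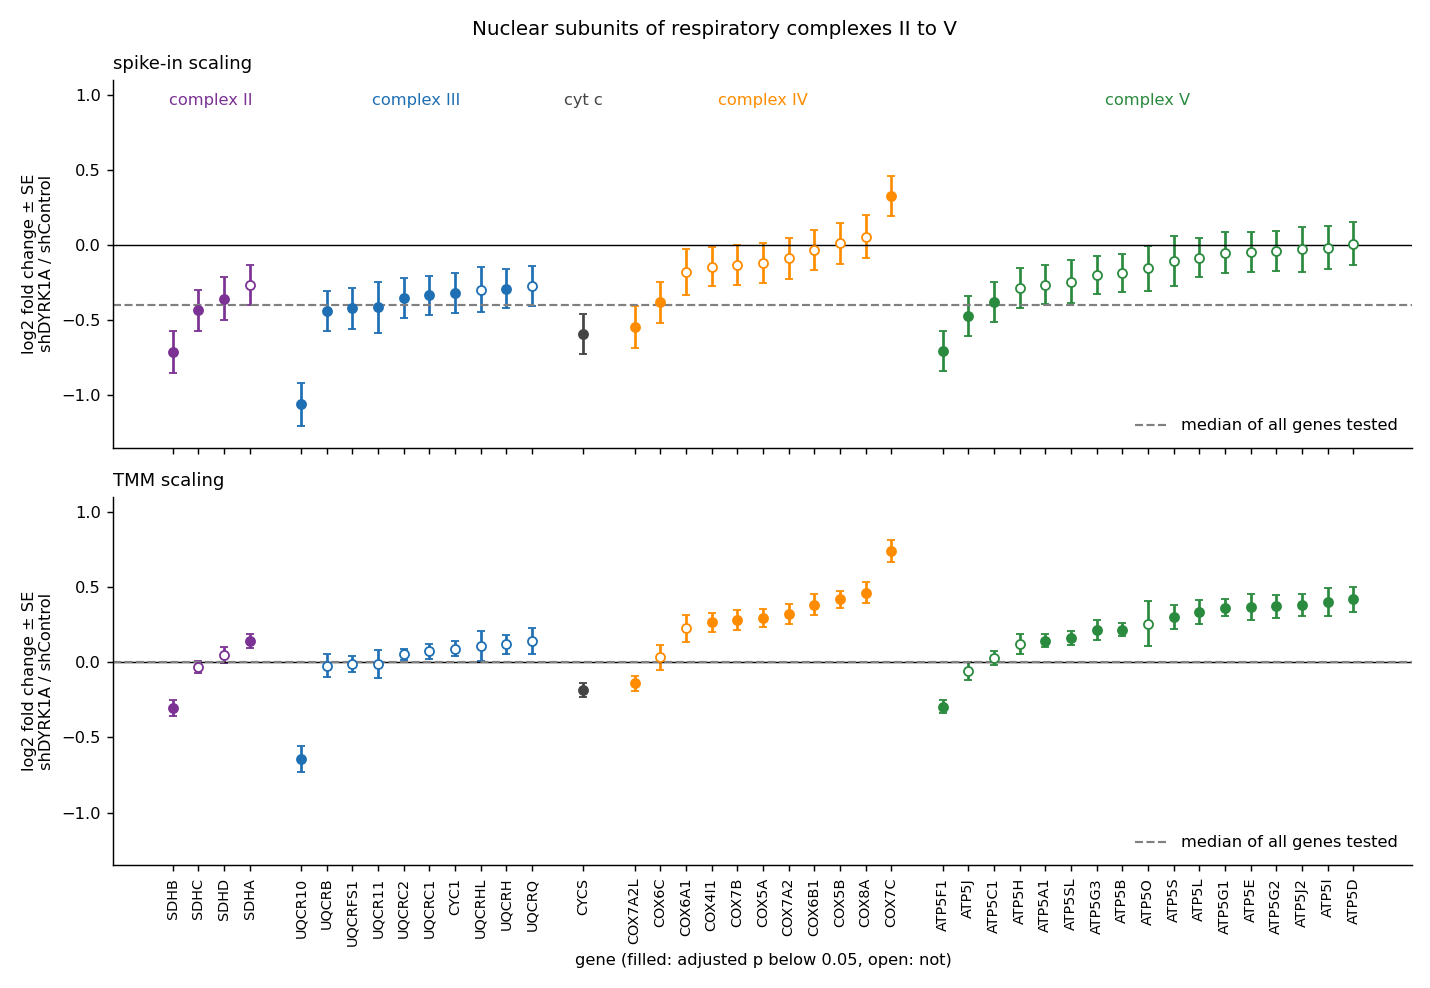
Log2 fold change ± SE of the 43 members tested, by complex, with spike-in scaling (top) and TMM scaling (bottom). Filled points have an adjusted p below 0.05 in edgeR and the dashed line is the median of all 9697 genes, at -0.40 and 0.00. UQCR10, SDHB and ATP5F1 stand lowest and COX7C highest on both scales.

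The promoters of the 4 members on which the results turn (the 3 past the fold threshold and COX7C, the one higher gene) are shown from RefSeq (GRCh38.p14), each from 250 bases before to 20 bases after an annotated transcript start, 5′ to 3′ on the strand of the gene. Capitals mark matches, on either strand, to CGCATGCG (the NRF1 core), CCGGAAG (the ETS word bound by GABP), AAGATGGC (YY1), GGGCGG (SP1) and TCTCGCGAGA, the palindrome that the study linked to DYRK1A at promoters. The SDHB stretch is chr1:17054013-17054282 (minus strand), that of ATP5F1 chr1:111449214-111449483 (plus), that of COX7C chr5:86617691-86617960 (plus) and that of UQCR10 chr22:29767119-29767388 (plus).
SDHB: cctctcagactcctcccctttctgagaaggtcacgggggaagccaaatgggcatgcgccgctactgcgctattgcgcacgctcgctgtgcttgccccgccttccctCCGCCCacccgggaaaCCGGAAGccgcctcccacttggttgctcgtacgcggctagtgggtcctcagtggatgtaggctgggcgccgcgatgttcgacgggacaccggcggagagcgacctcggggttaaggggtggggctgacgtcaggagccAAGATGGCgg
ATP5F1: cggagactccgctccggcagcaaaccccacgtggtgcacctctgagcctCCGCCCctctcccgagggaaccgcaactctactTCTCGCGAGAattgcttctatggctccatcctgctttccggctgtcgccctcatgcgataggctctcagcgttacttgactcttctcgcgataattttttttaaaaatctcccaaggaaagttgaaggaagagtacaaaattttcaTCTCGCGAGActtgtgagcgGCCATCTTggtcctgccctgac
COX7C: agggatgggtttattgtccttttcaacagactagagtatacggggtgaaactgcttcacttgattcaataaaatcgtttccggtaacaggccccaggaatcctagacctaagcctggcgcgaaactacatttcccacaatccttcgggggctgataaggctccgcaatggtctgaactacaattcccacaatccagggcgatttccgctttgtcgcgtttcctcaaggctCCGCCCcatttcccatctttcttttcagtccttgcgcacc
UQCR10: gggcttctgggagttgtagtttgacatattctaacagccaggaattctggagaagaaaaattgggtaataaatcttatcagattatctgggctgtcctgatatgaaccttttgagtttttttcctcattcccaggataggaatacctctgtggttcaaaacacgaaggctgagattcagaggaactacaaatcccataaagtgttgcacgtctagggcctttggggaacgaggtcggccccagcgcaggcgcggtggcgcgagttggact

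The palindrome stood in the ATP5F1 stretch at 2 places, starting 168 and 22 bases before the start. Windows of 300 bases were given for 33 of the 45 members, and ATP5F1 was the one member among them with the palindrome, which 0.424% of all 35116 windows held. The YY1 word lay across the start of ATP5F1 and 11 bases past that of SDHB. The UQCR10 window held none of the 5 words, and COX7C held the SP1 word alone. Of the 39 windows of the 33 members, 16 had the ETS word (10.3% of all windows) and 6 the NRF1 core (2.02%). The YY1 word was in 6 (2.89%) and the SP1 word in 21 (45.0%). Those shares cover all windows, not only those of tested genes. By gene, 15, 6, 5 and 19 of the 33 members had these words, in that order. Of the 9697 genes tested, 1966, 404, 594 and 6245 had them, so the shares of all windows understate how common the words are among tested genes. The NRF1 core was in the windows of SDHD, COX6A1, ATP5C1, ATP5G2, ATP5I and ATP5J. These matches are a description of letters and say nothing of binding. The 93 tested genes of the genome with the palindrome had a median log2 fold change of -0.44 on the spike-in scale, against -0.40 for all genes, and 14 of the 93 were lower past the fold threshold, near the 14.3% of all genes. The median of the 1966 with the ETS word was -0.38.

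Complex II consists of the flavoprotein SDHA, the iron-sulfur protein SDHB and the membrane anchors SDHC and SDHD. SDHB (ENSG00000117118, GRCh38 chr1:17018722-17054170, minus strand) had spike-in-normalized counts of 5796, 5430 and 4780 in the shControl libraries and 3483, 3201 and 3100 in the shDYRK1A libraries. Every shDYRK1A library was below every shControl library. The log2 fold change was -0.71 ± 0.14 (SE, n = 3 per group, adjusted p 2.72e-06 in edgeR), and in CPM, which makes no use of the spike-in, the values fell from 121, 114 and 119 to 95.0, 102 and 93.1. SDHB was called in all 6 fits that left out a library, on either scale (TMM -0.30, adjusted p 0.000668).

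Counts of the other 3 subunits of complex II, set against the rest of the library, were not lower in shDYRK1A as those of SDHB were. SDHC held 147, 145 and 150 CPM in shControl and 145, 143 and 151 CPM in shDYRK1A, which overlapped. SDHD stood at 55.2, 56.1 and 55.5 against 57.3, 60.5 and 57.4 CPM, and SDHA at 196, 200 and 204 against 220, 232 and 219 CPM. For both of these each shDYRK1A library was above each shControl library in CPM, and below it in spike-in-normalized counts. With spike-in scaling SDHC (-0.43, adjusted p 0.00342) and SDHD (-0.36, adjusted p 0.0218) were lower in edgeR, while SDHA (-0.26, adjusted p 0.0692) was not called. The call of SDHC held in 6 of 6 fits that left out a library, and that of SDHD in 2 of 6, with adjusted p-values up to 0.124. With TMM SDHA was higher (0.14, adjusted p 0.0207) and the anchors were not called. Within a library the log2 ratio of SDHB to SDHA was -0.76 ± 0.06 in shControl and -1.21 ± 0.03 in shDYRK1A (SD, n = 3 each). This pair was chosen after its values were seen.

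In complex III, UQCR10, a small subunit of the membrane part, showed the largest decline of all 43 members. UQCR10 (ENSG00000184076, chr22:29767369-29770413, plus strand) had normalized counts of 5511, 4822 and 4124 in shControl and 2304, 2432 and 2197 in shDYRK1A, without overlap. Its CPM was 115, 101 and 103 against 62.9, 77.9 and 65.9. The log2 fold change was -1.06 ± 0.14 (SE, adjusted p 3.31e-12 in edgeR), and -0.64 with TMM (adjusted p 6.9e-05). UQCR10 was called in every fit that left out a library, with values of -1.16 to -0.95.

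The other 9 members of complex III lay between -0.44 and -0.27 with spike-in scaling. The core and electron-carrying subunits were lower in edgeR: UQCRC1 (-0.34, adjusted p 0.0203), UQCRC2 (-0.35, adjusted p 0.0147), the Rieske iron-sulfur protein UQCRFS1 (-0.42, adjusted p 0.0044) and cytochrome c1, CYC1 (-0.32, adjusted p 0.0283). Of the small subunits UQCRB (-0.44), UQCR11 (-0.42) and the hinge protein gene UQCRH (-0.29, adjusted p 0.0423) were lower, and UQCRQ (-0.27, adjusted p 0.0635) and UQCRHL (-0.30, adjusted p 0.0728) were not called. In all, 8 of 10 were lower, against the 63.4% of all genes, and the complex's median was -0.34, which is 0.06 above that of all genes. The count depended on the libraries: it was 2 without shControl 1A, 3 without shControl 1B, 4 without shDYRK1A 1B, 1 without shDYRK1A 1C and 10 without shControl 1C. The median of all genes also moved between these fits, as given above. With TMM these 9 genes lay between -0.02 and 0.14 and 0 were called.

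UQCRHL, an intronless near-identical copy of UQCRH whose reads cannot be fully told apart from it, had nearly the fold change of UQCRH. The log2 ratio of UQCRHL to UQCRH was -3.54 ± 0.09 in shControl and -3.55 ± 0.13 in shDYRK1A (SD, n = 3 each), which overlapped. UQCRH had 361, 336 and 341 CPM in shControl and 372, 414 and 359 CPM in shDYRK1A. UQCR10 and UQCRQ, a pair chosen after their values were seen, lay further apart in every shDYRK1A library than in any shControl library. Their log2 ratio within a library was -0.51 ± 0.03 in shControl and -1.29 ± 0.08 in shDYRK1A (SD, n = 3 each).

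Cytochrome c, the soluble carrier between complexes III and IV and also a trigger of caspase activation when released into the cytosol, was lower in shDYRK1A. CYCS (ENSG00000172115, chr7:25120091-25125361, minus strand) had normalized counts of 10451, 10300 and 7896 in shControl and 7208, 5619 and 6188 in shDYRK1A. Its log2 fold change was -0.59 ± 0.13 (SE, adjusted p 5.45e-05 in edgeR), and -0.18 with TMM (adjusted p 0.00711). In CPM the groups touched without overlapping, at 217, 215 and 196.8 in shControl and 196.6, 180 and 186 in shDYRK1A. CYCS was called in all 6 fits that left out a library on each scale.

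**Figure D2:**
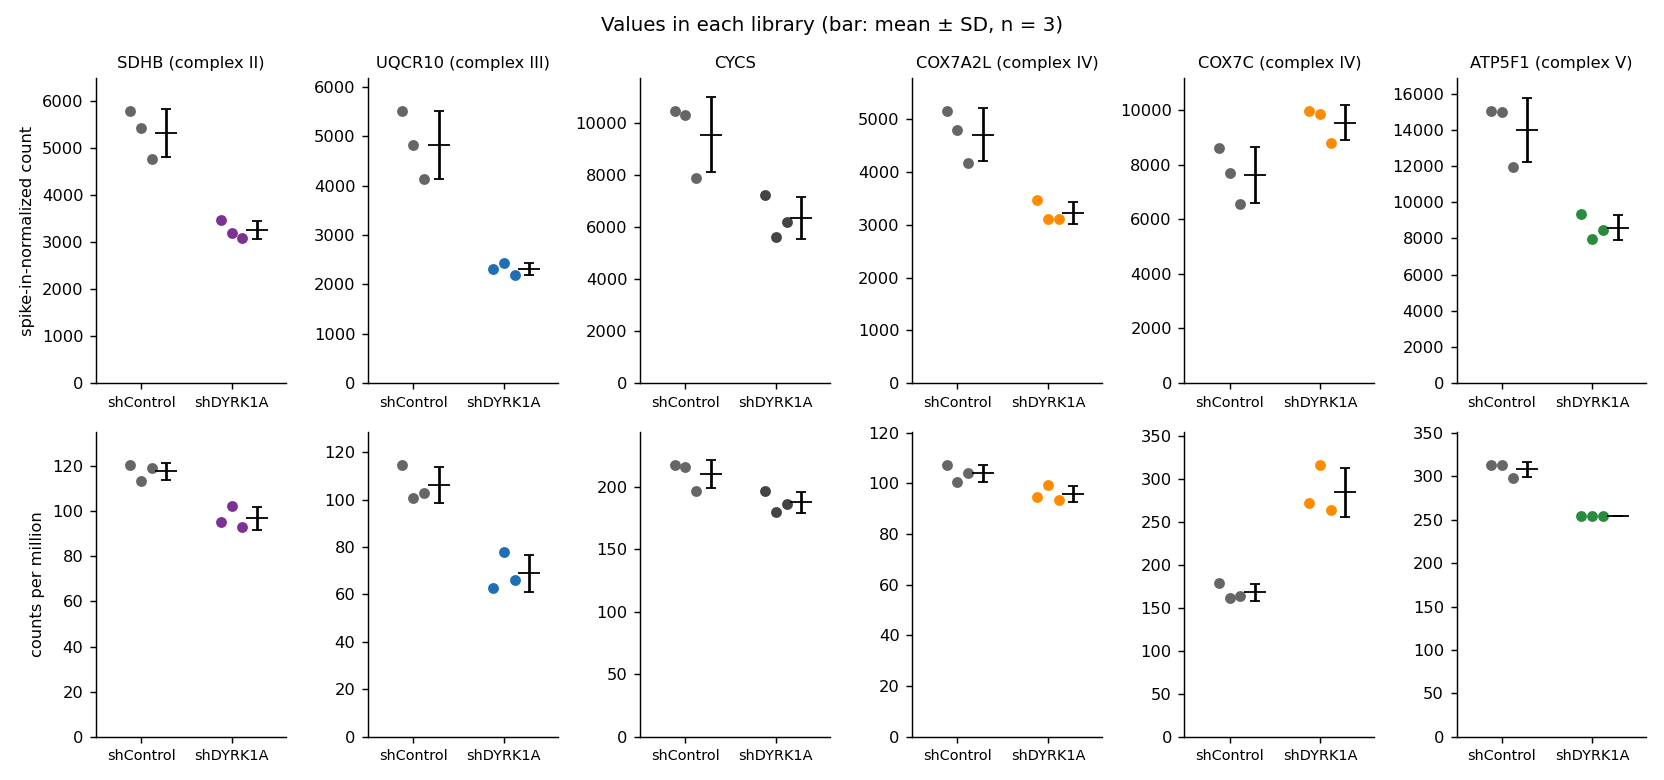
Spike-in-normalized counts (top) and CPM (bottom) of 6 members in each library, with mean ± SD (n = 3) beside the points and axes from 0. Points from left to right are libraries 1A, 1B and 1C. The shDYRK1A libraries lie below the shControl libraries for SDHB, UQCR10, CYCS, COX7A2L and ATP5F1 and above them for COX7C in both units.

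Complex IV held both the gene called higher and a paralog pair that parted. COX7C (ENSG00000127184, chr5:86617904-86620962, plus strand), a small subunit with 1 membrane helix, had normalized counts of 8633, 7703 and 6549 in shControl and 9975, 9878 and 8808 in shDYRK1A. In CPM it rose from 180, 161 and 163 to 272, 316 and 264, with all shDYRK1A libraries above all shControl libraries in both units. The log2 fold change was 0.32 ± 0.13 (SE, adjusted p 0.0254 in edgeR) and 0.74 with TMM (adjusted p 1.05e-05). On the spike-in scale the call held in 1 of 6 fits that left out a library, the one without shControl 1A, with adjusted p-values up to 0.0832 and fold changes of 0.23 to 0.42. On the TMM scale it held in all 6.

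COX7A2L, which joins complex III and IV in supercomplexes, and COX7A2, the subunit found in most tissues, are paralogs. COX7A2L had 107, 100 and 104 CPM in shControl and 94.5, 99.5 and 93.3 CPM in shDYRK1A, and COX7A2 had 117, 110 and 110 against 143, 155 and 129 CPM. The 2 genes thus lay further apart in every shDYRK1A library than in any shControl library. Within a library, the log2 ratio of COX7A2L to COX7A2 was -0.11 ± 0.03 in shControl and -0.57 ± 0.09 in shDYRK1A (SD, n = 3 each). The two-sided exact permutation p was 0.1, the smallest that 3 against 3 allow. With spike-in scaling COX7A2L was lower (-0.55, adjusted p 0.000316 in edgeR) and COX7A2 was not called (-0.09, adjusted p 0.567). With TMM COX7A2L was lower (-0.14, adjusted p 0.0345) and COX7A2 higher (0.32, adjusted p 0.00171). The TMM call of COX7A2L held in 2 of 6 fits without a library.

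Of the remaining 8 subunits of complex IV, 7 were not called on the spike-in scale and lay between -0.18 and 0.06. COX4I1, the regulatory subunit that binds ATP, had 403, 382 and 384 CPM in shControl and 464, 517 and 445 CPM in shDYRK1A, while its normalized counts overlapped. Its log2 fold change was -0.14 with the spike-in (adjusted p 0.316) and 0.27 with TMM (adjusted p 0.00377). COX6C (-0.38, adjusted p 0.00967), near the median of all genes, was the other member lower with the spike-in, and it was not called with TMM (0.03). COX6A1 (-0.18, adjusted p 0.29), COX7B (-0.13), COX5A (-0.12), COX6B1 (-0.03), COX5B (0.01) and COX8A (0.06, adjusted p 0.729) were not called with the spike-in in edgeR. With TMM, 8 of 11 members were higher, against 27.3% of all genes, and the highest after COX7C were COX8A (0.46, adjusted p 0.000187) and COX5B (0.42, adjusted p 0.000105). The complex's median was -0.12, which is 0.28 above that of all genes. Its 2 lower calls with the spike-in became 1 without shControl 1A or shDYRK1A 1C and 4 without shControl 1C.

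ATP synthase has a catalytic F1 head, a rotating c ring in the membrane, a peripheral stalk that holds the head, and small membrane subunits. The 3 genes of complex V called lower with the spike-in were ATP5F1 and ATP5J of the stalk and ATP5C1 of the head, and ATP5F1 alone among them was also lower with TMM. ATP5F1 (ENSG00000116459, chr1:111448864-111462773, plus strand), the long subunit b of the stalk and the gene with the 2 palindromes, had normalized counts of 15054, 14980 and 11938 in shControl and 9331, 7953 and 8468 in shDYRK1A. Its CPM was 313, 313 and 298 in shControl, against 255, 255 and 254 in shDYRK1A. The log2 fold change was -0.70 ± 0.13 (SE, adjusted p 1.16e-06 in edgeR) and -0.30 with TMM (adjusted p 0.000126). It was called in all 6 fits without a library on both scales, although its fold change was then -0.81 to -0.65 and so on either side of the threshold.

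Of the other stalk subunits, ATP5J (F6) was lower with the spike-in (-0.47, adjusted p 0.00144 in edgeR), and ATP5H (d, -0.29, adjusted p 0.0509) and ATP5O (OSCP, -0.15, adjusted p 0.355) were not called. ATP5O was the most scattered of them, with 35.5, 27.7 and 34.1 CPM in shControl and 38.3, 48.7 and 31.1 CPM in shDYRK1A. In the head, the γ subunit ATP5C1, the central shaft, was lower (-0.38, adjusted p 0.0103). The α subunit ATP5A1 (-0.26, adjusted p 0.0599), the catalytic β subunit ATP5B (-0.19, adjusted p 0.174), δ (ATP5D, 0.01) and ε (ATP5E, -0.05) were not called with the spike-in. ATP5B had 1027, 1018 and 1028 CPM in shControl and 1196, 1216 and 1214 CPM in shDYRK1A. With TMM these 4 were higher, at 0.14, 0.22, 0.42 and 0.37. The log2 ratio of ATP5F1 to ATP5B within a library, a pair chosen after its values were seen, was -1.73 ± 0.05 in shControl and -2.25 ± 0.01 in shDYRK1A (SD, n = 3 each).

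The c ring is encoded by ATP5G1, ATP5G2 and ATP5G3, which differ in their import sequences and give the same mature protein. With the spike-in 0 of the 3 were called in edgeR (-0.05, -0.04 and -0.20), and with TMM all 3 were higher (0.36, 0.37 and 0.21). ATP5G3 had 61.0, 59.6 and 59.9% of the counts of the 3 genes in the shControl libraries and 57.0, 57.2 and 58.7% in the shDYRK1A libraries. Each shControl share was above each shDYRK1A share, and the nearest pair was 59.6% (95% Wilson interval 59.1 to 60.1%) and 58.7% (58.3 to 59.2%). Those intervals cover counting error only. The membrane subunits ATP5I (e, -0.02), ATP5J2 (f, -0.03) and ATP5L (g, -0.08) were not called with the spike-in and were higher with TMM, at 0.40, 0.38 and 0.33.

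Over complex V, 3 of 17 members tested were lower with spike-in scaling, against 63.4% of all genes, 16 were negative, 0 were called higher, and the median was -0.15, which is 0.25 above that of all genes. The stalk had 2 of 4 lower and a median of -0.38, the F1 head 1 of 5 and -0.19, the c ring 0 of 3 and -0.05, and the membrane subunits 0 of 3 and -0.03. With TMM 12 were higher, against 27.3%, and 1 was lower. The 3 lower calls became 1 without shControl 1A, 2 without shControl 1B or shDYRK1A 1C and 8 without shControl 1C. ATP5SL (-0.25) and ATP5S (-0.11), which encode no subunit, are among the 17 and were not called with the spike-in. Under the filter by level, ATP5J2-PTCD1 had 1, 8 and 5 counts in shControl and 6, 4 and 10 in shDYRK1A, and ATP5L2 had 5, 6 and 4 against 7, 10 and 4. The inhibitor of ATP hydrolysis, ATP5IF1, is listed under its older symbol ATPIF1, which the rule did not match. Its CPM was 67.9 to 72.5 in shControl and 88.3 to 104.8 in shDYRK1A, and its log2 fold change was 0.01 with the spike-in (adjusted p 0.935) and 0.43 with TMM (adjusted p 0.000309).

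The complexes can also be compared inside each library, where the size factor cancels. Of all human gene counts, those of complex IV genes were 0.168, 0.161 and 0.160% with the control hairpin, compared with 0.200, 0.226 and 0.193% with the DYRK1A hairpin. Complex V genes took 0.396 ± 0.00776% in shControl and 0.457 ± 0.0227% in shDYRK1A (SD, n = 3 each). For both complexes every shDYRK1A library was above every shControl library, and shDYRK1A 1B was the highest. The shares of complex II (0.0520 ± 0.000685% and 0.0525 ± 0.00114%) and complex III (0.174 ± 0.00355% and 0.181 ± 0.0103%) overlapped between the groups. CYCS fell from 0.0210 ± 0.00113% to 0.0187 ± 0.000848%.

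**Figure D3:**
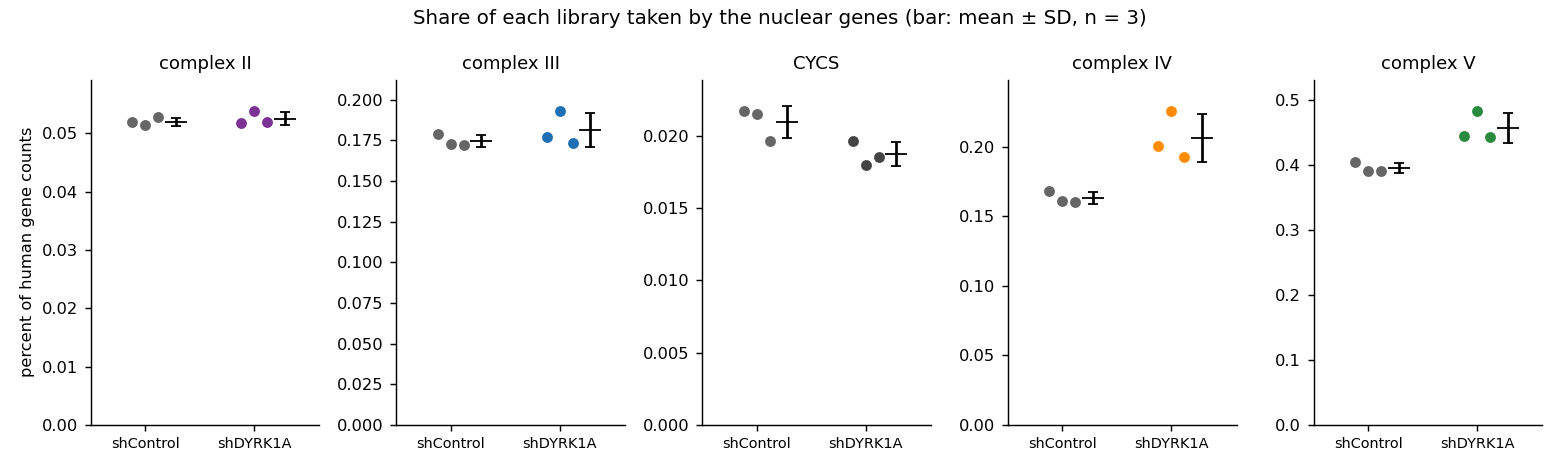
Percent of human gene counts taken by the nuclear genes of each complex and by CYCS, per library (1A, 1B and 1C from left to right), with mean ± SD (n = 3) and axes from 0. Complexes IV and V lie higher in shDYRK1A, complexes II and III overlap and CYCS lies lower.

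The log2 ratio of summed complex IV counts to summed complex III counts was -0.09, -0.10 and -0.10 in shControl and 0.18, 0.23 and 0.15 in shDYRK1A, a difference of 0.28. In shDYRK1A the log2 ratio of complex V was 0.15 higher to complex III and 0.19 higher to complex II, and that of complex IV to complex II was 0.32 higher, each without overlap between groups. The ratio of complex V to complex IV differed by -0.13, also without overlap. The ratio of complex III to complex II differed by 0.04, and the groups overlapped. No p is given for these sums, since the genes were chosen with results known.

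Complexes III, IV and V also contain subunits encoded by the mitochondrial genome, and 4 of these 6 were called lower with the spike-in, near the 63.4% of all genes. All 6 were negative, as were 9077 of 9697 genes. With TMM 0 were lower, against 28.6% of all genes, and 3 were higher (MT-CYB, MT-CO2 and MT-ATP6), against 27.3%. MT-CYB, cytochrome b of complex III, was at 3784, 3828 and 3651 CPM in shControl and 4898, 4852 and 4755 CPM in shDYRK1A, with a log2 fold change of -0.06 (adjusted p 0.642) on the spike-in scale and 0.34 with TMM (adjusted p 8.79e-05). MT-ATP8 was lowest on the spike-in scale, at -0.80 (adjusted p 1.24e-07), and was not called with TMM. Its reading frame overlaps that of MT-ATP6, so reads there could not be assigned to 1 gene with certainty. The log2 ratio of the nuclear complex III genes to MT-CYB was -1.11 ± 0.04 in shControl and -1.42 ± 0.08 in shDYRK1A (SD, n = 3 each), a difference of -0.31 without overlap. For nuclear complex IV genes against MT-CO1, MT-CO2 and MT-CO3 together it was -3.80 ± 0.05 and -3.58 ± 0.08, a difference of 0.22 that was also without overlap. For complex V the difference of 0.07 against MT-ATP6 and MT-ATP8 lay within the spread of the libraries when counts were summed. It was 0.35 when each gene had equal weight, which gives MT-ATP8 as much weight as MT-ATP6. The equal-weight ratios had an SD of 0.11 in shControl and 0.23 in shDYRK1A.

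**Figure D4:**
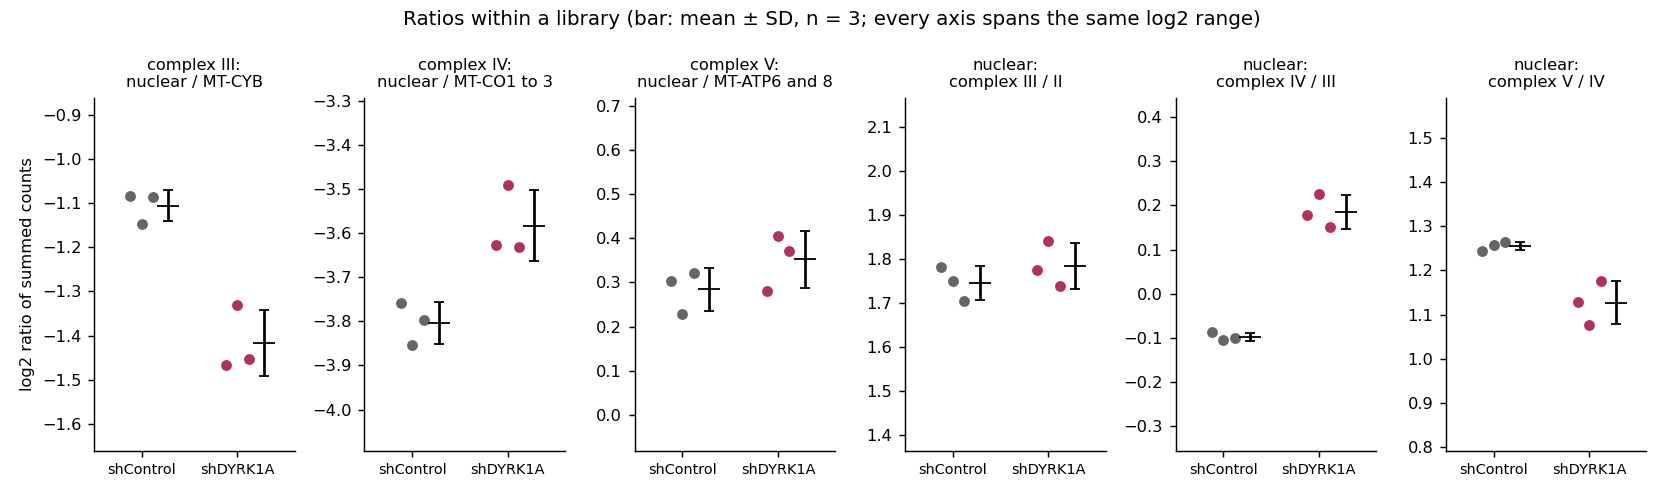
Log2 ratios of summed raw counts within each library (1A, 1B and 1C from left to right), with mean ± SD (n = 3). The first 3 panels set nuclear against mitochondrially encoded subunits of complexes III, IV and V, and the last 3 set nuclear complexes against each other. The groups lie apart for nuclear complex III over MT-CYB (difference -0.31) and for complex IV over complex III (0.28), and overlap for complex III over complex II.

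The genes that assemble, regulate and serve these complexes were taken from lists drawn up from textbook roles with earlier results of these data known. Their counts of lower genes are to be read against the 63.4% of all genes called lower and their medians against -0.40. With spike-in scaling, 4 of 6 complex III assembly genes were lower (median -0.33, from UQCC2 at -0.39 to UQCC3 at -0.03), as were 10 of 23 tested genes for complex IV assembly and copper delivery (median -0.24). COA6, which takes part in copper delivery to complex IV, was lowest of the latter at -0.90 (adjusted p 3.67e-08) and COX14 highest at 0.08 (adjusted p 0.655). Of complex V assembly genes 1 of 4 was lower (TMEM70, -0.42, the highest being ATPAF2 at -0.05), and SDHAF1, at -0.54 and lower, was the one complex II assembly gene past the filter. All 7 tested genes for ATP, phosphate and anion exchange were lower, from VDAC3 (-0.57) to SLC25A6 (-0.38). Of 13 genes for electron entry other than complex I, 6 were lower and 1 was higher, from COQ5 of ubiquinone synthesis (-0.74) to SQRDL, sulfide:quinone oxidoreductase (0.44, adjusted p 0.00787).

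Among regulators of respiratory gene expression, 9 of 11 tested were lower, against the 63.4% of all genes, and 2 passed the fold threshold, against 14.3%. With TMM 4 were lower, against 28.6% of all genes, and 2 higher, against 27.3%. TFAM, which packages and transcribes mitochondrial DNA, had normalized counts of 2900, 3007 and 2415 in shControl and 1177, 862 and 1118 in shDYRK1A. Its log2 fold change was -1.40 ± 0.15 (SE, adjusted p 4.84e-19 in edgeR) and -0.996 with TMM. GABPA, the DNA-binding partner of the GABP factor, was lower at -0.84, and ESRRA was highest at 0.03 (adjusted p 0.853). Complex I subunits resembled complexes IV and V, with 6 of 32 lower, against 63.4% of all genes, and a median of -0.17. With TMM 22 of them were higher (68.8%, against 27.3% of all genes). On the spike-in scale they ranged from NDUFB5 (-1.63, adjusted p 1.93e-26) to NDUFA2 (0.09). Mitochondrial ribosomal proteins had 39 of 71 lower (54.9%, against 63.4%) and a median of -0.34, from MRPL18 (-0.87) to MRPL41 (0.07). With TMM 15 of these were lower, against 28.6% of all genes. A further 19 (26.8%) were higher with TMM, near the 27.3% of all genes.

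Transcript length moved with these fold changes. The principal transcripts of the 43 members had a median length of 1324 bases, against 3324 for other genes. The length is that of the longest transcript at a gene's best APPRIS principal level in GENCODE 29. It need not be the transcript expressed in T98G, and for SDHC it was 13566 bases. With spike-in scaling, other genes of up to 1000 bases had a median log2 fold change of -0.25 (364 genes) and those over 4000 bases -0.47 (3655 genes). The 15 members of up to 1000 bases had a median of -0.09, the 14 of 1000 to 2000 bases -0.33 against -0.34 for other genes, the 8 of 2000 to 4000 bases -0.33 against -0.39, and the 6 longer ones -0.35. Over the 43 members, Spearman's rho between length and fold change was -0.38, and over other genes -0.22, as descriptions of genes that share libraries. The median length was 914 bases in complex IV, 1577 in complex V, 1654.5 in complex III and 1914.5 in complex II. The part of length in the difference between complexes was not tested. UQCR10, at 916 bases, had the lowest fold change of all members.

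**Figure D5:**
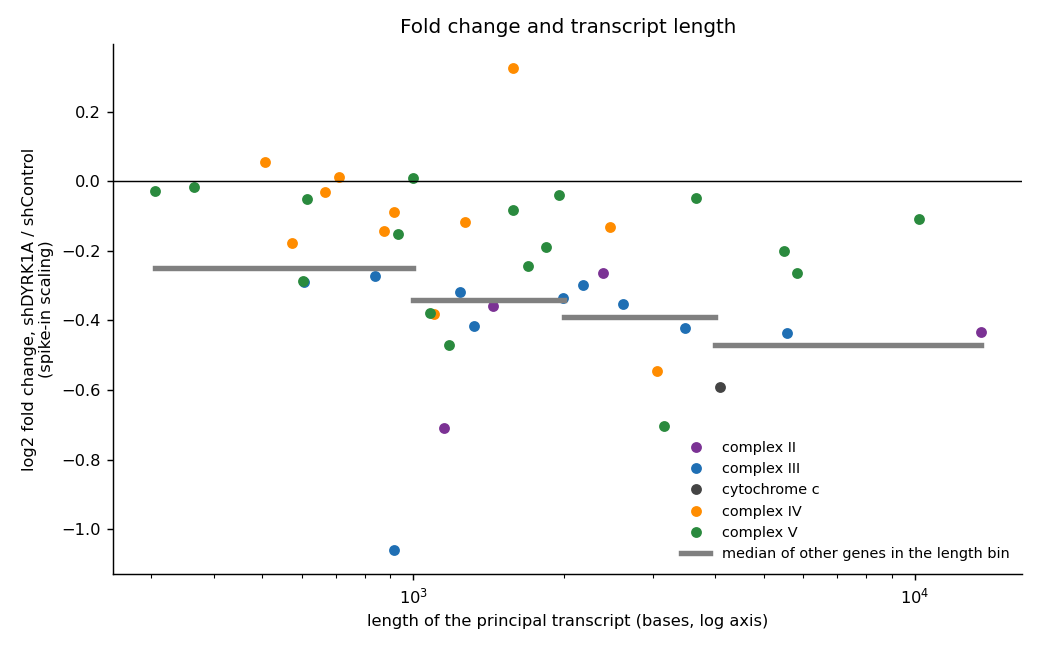
Log2 fold change with spike-in scaling against the length of the principal transcript (log axis) for the 43 members, coloured by complex, with grey bars at the median of other genes in 4 length bins. Members of up to 1000 bases have a median of -0.09 and the other genes of that length -0.25, and UQCR10 lies far below its bin.

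Some counts are less certain than their depth implies. Exons on the same strand overlapped another gene over 34.5% of the exon length in COX8A, 19.6% in ATP5O, 13.0% in COX6A1, 11.2% in SDHD and 10.9% in UQCR11, and reads there could not be assigned with certainty. The 20 pseudogene symbols left out held 0 to 139 counts each per library.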

How the data were processed

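Polyadenylated RNA of 6 T98G libraries with added fly cells was sequenced. The raw gene counts of human genes were deposited by the authors, 1 table per library, and the normalized signal is those counts divided by 1 scaling factor per library, which the authors took from reads of the fly cells. The submitters' processing notes name STAR, DESeq2 and the builds hg38 and dm3. Columns of the authors' own comparison (fold changes, p-values) were not used, and 0 per-sample columns were unmatched. The summary lines for unassigned reads were kept out of library sizes.

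Library sizes were set from the authors' size factors and fitted with edgeR 4.0.16 (quasi-likelihood, limma 3.58.1, R 4.3.3), without covariates, on 9697 genes with a mean level above 10 CPM. Adjusted p-values are Benjamini-Hochberg over all of these. Each SE of an edgeR log2 fold change was derived from the test, as its absolute value divided by the square root of the quasi-likelihood F. The edgeR step was tested on simulated counts with known size factors and as many genes raised as lowered. That setting held no shift shared by most genes, so it does not speak to the choice of scaling. Alternatives were TMM, median-of-ratios scaling, DESeq2 1.42.0, other filters and thresholds, a replicate block and omission of each library. Tables and plots used Python 3.11.15, pandas 2.3.3, scipy 1.17.1 and matplotlib 3.10.9. Coordinates of all 45 members equal GENCODE 29.

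Members and lists were chosen with earlier results of these data known. Genes named are all of complex II, CYC1, CYCS, the 3 lowest and 3 highest of each other complex, those called higher or past the fold threshold, paralogs, the ends of each list and DYRK1A. Further members are named to account for their complex. TMM fits without a library or with the block, and ratios between complexes, were added after the data were seen.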

Additional observations from a re-analysis of the deposited data

How the results depend on the processing

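The scaling decided most directions. Apart from TMM with all libraries and no block, the share of all genes called is not given for the settings of this section. The counts of members below are therefore not set against such a share. With TMM and median-of-ratios scaling, respectively, 5 and 5 members were lower, 21 and 22 were higher, 0 and 0 were lower past the fold threshold, 1 and 1 were higher past it, and the median log2 fold change of all members was 0.14 and 0.15. With DESeq2, 21 were lower, the 17 and also SDHA, UQCRQ, ATP5H and ATP5A1. Without a filter on low counts 14 were lower and 0 higher, at an adjusted p below 0.01 there were 10 lower and 0 higher, and 5 were lower beyond a log2 fold change of 0.5. Relative to all genes, the median of complex II was -0.027 with edgeR's filterByExpr and -0.061 without a filter, and that of complex III without a filter was -0.0096. The nuclear to mitochondrial difference of complex V was 0.35 as a mean of log2 counts. Without 1 library in turn, 7 to 27 members were lower, 0 to 1 higher and 1 to 4 lower past the threshold, the complex II median relative to all genes was -0.011 to 0.027 and that of complex V 0.20 to 0.32.

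Of the single members, 29 turned positive with TMM scaling, and their values with TMM and with median-of-ratios scaling were as follows: ATP5C1 0.029 and 0.033; COX6C 0.032 and 0.035; SDHD 0.049 and 0.052; UQCRC2 0.052 and 0.055; UQCRC1 0.072 and 0.076; CYC1 0.090 and 0.094; UQCRHL 0.11 in both; UQCRH 0.12 in both; ATP5H 0.12 and 0.13; UQCRQ and SDHA 0.14 in both; ATP5A1 0.14 and 0.15; ATP5SL 0.16 in both; ATP5G3 0.21 and 0.22; ATP5B 0.22; COX6A1 0.23; ATP5O 0.26; COX4I1 0.27; COX7B 0.28; COX5A 0.29 and 0.30; ATP5S 0.30; COX7A2 0.32 and 0.33; ATP5L 0.33 and 0.34; ATP5G1 0.36; ATP5E and ATP5G2 0.37; ATP5J2 0.38; COX6B1 0.38 and 0.39; ATP5I 0.40. Without 1 library in turn the sign turned for COX6B1 (-0.12 to 0.037), COX5B (-0.057 to 0.061), COX8A (-0.012 to 0.14), ATP5L (-0.18 to 0.024), ATP5G1 (-0.16 to 0.0084), ATP5E (-0.15 to 0.063), ATP5G2 (-0.12 to 0.030), ATP5J2 (-0.13 to 0.088), ATP5I (-0.14 to 0.12) and ATP5D (-0.067 to 0.13). The cause was not tested. With 3 libraries per group, differences near 0 could not be given a direction.

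Libraries of the same name correlated at 0.15 (1A), 0.073 (1B) and 0.13 (1C) in their deviations from the group means. Since these were not all above 0.1 and the labels give no shared batch, the names were not taken to pair the libraries. Every library correlated best with its own name, which is a hint from the data, not the design. With the replicate block 18 members were lower, ATP5A1 being added (-0.26, adjusted p 0.0457 in edgeR), 1 was higher and 2 were lower past the fold threshold, and with TMM scaling and the block 5 were lower and 22 higher.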
